A study of Mus musculus with 8 samples.

Results

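The genes described here are 10 genes of the unfolded protein response and the integrated stress response, Atf4, Atf5, Ddit3, Xbp1, Trib3, Sesn2, Asns, Chac1, Hspa5 and Herpud1, taken as the rows of the read count table whose mouse Ensembl identifiers carry these symbols. They are 10 of 57010 identifiers in the table, and all 10 were among the 20457 genes that passed the filter on low counts. Poly(A) RNA was sequenced from whole mouse retina in 4 groups of 2 libraries, from wild-type (WT) mice at postnatal day 15 (P15) and from rd10 mice of that age, of P18 and of P21. The rd10 strain is homozygous for a missense mutation of Pde6b, which encodes the beta subunit of the rod phosphodiesterase, and loses its rods in early life. The WT mice were littermates on the C57BL/6J background, each library came from 1 retina, and no agent was given to any of these groups. WT retinas at P18 and P21 were not analysed here, so that age and genotype change together in every comparison of rd10 P18 or P21 with WT P15.

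Secretory and membrane proteins fold in the endoplasmic reticulum (ER), and unfolded proteins there activate the sensors IRE1, PERK and ATF6. IRE1 splices the Xbp1 mRNA so that it encodes an active transcription factor, ATF6 is cut to release another, and PERK phosphorylates the translation factor eIF2. Phosphorylated eIF2, which also follows amino acid shortage, viral RNA and heme shortage through other kinases, lowers general translation and raises translation of Atf4, and this shared output is called the integrated stress response. Rods make large amounts of membrane protein in the ER. The rd10 mutation is in a peripheral enzyme of the outer segment. Read counts measure neither the translation of Atf4 nor the splicing of Xbp1.

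Promoter sequences are shown because they carry the DNA letters through which this response is known to reach its genes. The RefSeq promoter windows (GRCm38.p6, from 250 bases before to 50 bases after a transcript's start) were searched on both strands for the ER stress response element ERSE (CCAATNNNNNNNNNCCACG), for ERSE-II (ATTGG and CCACG, 1 base apart), for the CARE element of ATF4 and its C/EBP partners (TGATGNAA) and for the unfolded protein response element UPRE (TGACGTGG). ERSE and ERSE-II share the letters CCACG and the CCAAT box or its reverse complement. UPRE ends in CGTGG, the reverse complement of CCACG, so that these patterns can overlap. All 10 genes had at least 1 window. ERSE lay in Hspa5, ERSE-II in Herpud1, and CARE in Asns, Chac1, Herpud1 and Trib3. No window of the 10 genes held UPRE, and none of the 4 patterns was found in those of Atf4, Atf5, Ddit3, Xbp1 and Sesn2. Of all 32851 windows, 0.119% held ERSE, 0.0365% ERSE-II, 3.97% CARE and 0.676% UPRE. The 30 bases around each match are given on the strand of the gene, with the fixed letters of the pattern in capitals.
Hspa5, ERSE, chr2:34772020-34772049, plus strand, noncoding part of an exon: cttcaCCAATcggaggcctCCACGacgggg
Herpud1, ERSE-II, chr8:94386368-94386397, plus strand, upstream: cgggcgctgATTGGgCCACGttggacactg
Herpud1, CARE, chr8:94386306-94386335, plus strand, upstream: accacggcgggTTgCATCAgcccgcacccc
Chac1, CARE, chr2:119351038-119351067, plus strand, upstream: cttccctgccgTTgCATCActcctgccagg
Trib3, CARE, chr2:152344028-152344057, minus strand, upstream: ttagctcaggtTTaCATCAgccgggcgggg
Asns, CARE, chr6:7693214-7693243, minus strand, noncoding part of an exon: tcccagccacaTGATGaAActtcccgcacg
The annotation of each match is that of GENCODE M21. In Herpud1, Chac1 and Trib3 the CARE pattern was read from the opposite strand. A match describes the letters only and does not show that a factor bound there.

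Total counts lay between 28076947 and 33724562 per library. Levels are given as CPM, read counts scaled to library size after TMM normalization, and a level between genes is compared as CPM per kilobase of annotated exon. A gene was called when edgeR's quasi-likelihood test gave an adjusted p under 0.05 (Benjamini-Hochberg, over all 20457 genes) with a log2 fold change above 1 or below -1, the thresholds the study used. Pde6b was present in every library, at 2128 and 2335 CPM in WT and between 964 and 1799 CPM in rd10 retina, and counts do not show the base change. Reads of 4 Y-linked genes were abundant in rd10 P15 (both libraries), rd10 P18 replicate 1 and rd10 P21 replicate 1 (5530 to 7193 counts) and close to absent in WT P15 (both libraries), rd10 P18 replicate 2 and rd10 P21 replicate 2 (3 to 19 counts). Genotype and Y-linked reads therefore cannot be told apart at P15. Replicates of rd10 P18 lay further apart than those of the other groups, with a median difference between replicates over all genes of 1.33-fold, against 1.17-fold in each of the other 3 groups.

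Among the 10 genes, Hspa5 alone was called, and in 1 of the 6 comparisons between groups, rd10 P18 against WT P15, where it rose 2.40-fold. Atf5, Ddit3 and Xbp1 lay between 1.57-fold and 1.60-fold above WT in the same comparison without passing the threshold. Atf4, Sesn2 and Herpud1 lay within 6% of WT P15. The share of all genes called in that comparison was 1.48% (1.15% higher), and 1 of 10 genes is read against that share. Unadjusted p was under 0.05 for 5 of the 10 genes (Hspa5, Xbp1, Atf5, Ddit3 and Asns, all higher), against 17.4% of all genes. The 2 rd10 P18 libraries lay above both WT libraries for 7 of the 10 genes, against 24.1% of all genes, and below both for none of them, against 22.9% of all genes. The median log2 fold change of the 10 genes was 0.41, beside 0.01 over all genes tested. DESeq2 called the same gene, and it called 949 of all genes, against 303 by edgeR. Its adjusted p was under 0.05 for 4 of the 10 (Hspa5, Xbp1, Atf5 and Ddit3), against 7.32% of all genes.

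**Figure D1:**
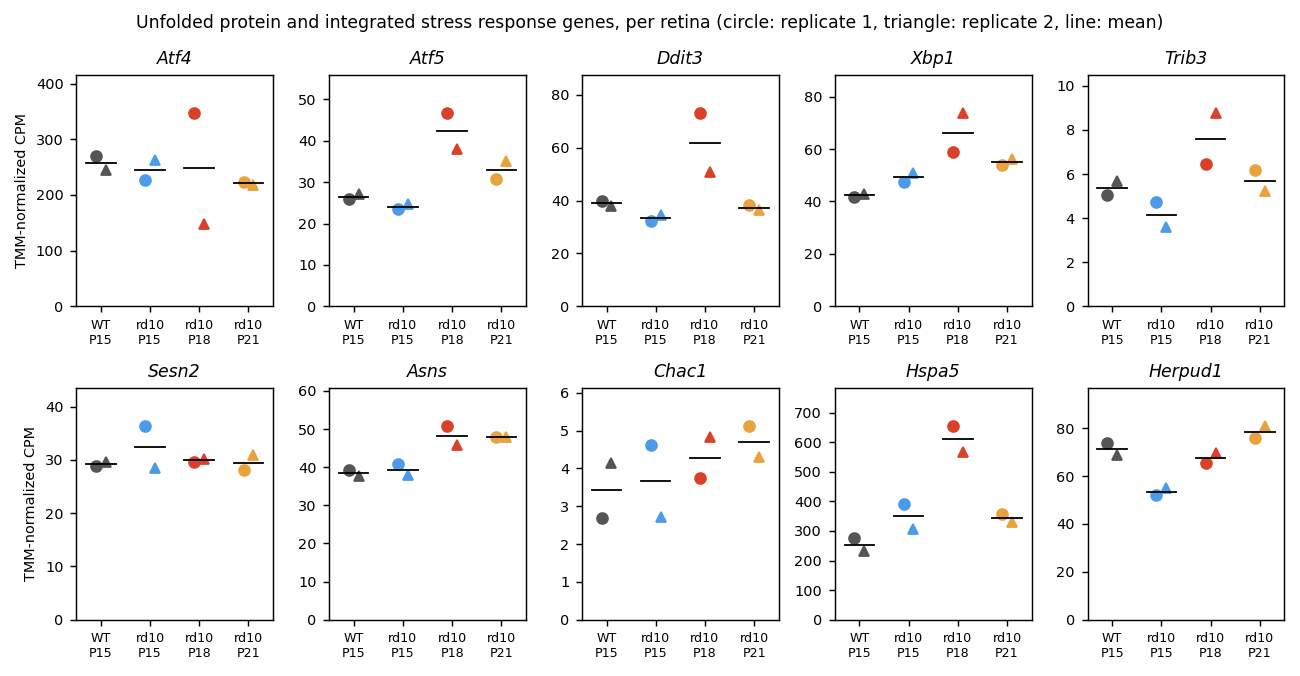
TMM-normalized CPM (vertical axis, from 0) of the 10 genes in the 4 groups; circles and triangles are the replicate 1 and replicate 2 libraries and lines are group means. Hspa5 sits between 567 and 653 CPM at P18, above every other library, whereas the 2 Atf4 values at P18 (148 and 347 CPM) enclose all other values of that gene.

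Hspa5 (ENSMUSG00000026864, chr2:34771970-34777547) encodes BiP, the chaperone of the ER lumen that binds unfolded proteins and holds the stress sensors inactive. It measured 276 and 232 CPM in WT P15, 392 and 307 CPM in rd10 P15, 653 and 567 CPM in rd10 P18, and 357 and 329 CPM in rd10 P21. Every rd10 library was above both WT libraries, and the P18 libraries were the highest. Group means were 254 ± 31.1 CPM in WT P15, 349 ± 60.3 CPM in rd10 P15, 610 ± 60.7 CPM in rd10 P18 and 343 ± 19.9 CPM in rd10 P21 (SD, n = 2 each). The log2 fold change against WT P15 was 1.26 ± 0.17 (SE) at P18, with an edgeR adjusted p of 0.0177. The call was not kept in some smaller fits. It was lost without WT P15 replicate 1 or replicate 2, which leaves 1 WT library, with log2 fold changes of 1.40 and 1.15. It was also lost when the 4 libraries compared were fitted alone, with a log2 fold change of 1.27 (edgeR adjusted p = 0.0599). Fewer of all genes were called in each of these fits, and with the 4 libraries alone the number was 143, against 303 in the main fit. At P15 the log2 fold change was 0.46 ± 0.17 (adjusted p = 0.316), and at P21 it was 0.44 ± 0.17 (adjusted p = 0.362).

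Between the rd10 ages, Hspa5 differed by a log2 fold change of 0.81 ± 0.17 from P15 to P18 (edgeR adjusted p = 0.0969) and of -0.83 ± 0.17 from P18 to P21 (adjusted p = 0.362). Neither passed, so the level at P18 is not shown by this test to differ from that at P15 or P21. By DESeq2 the adjusted p of these differences was 0.00166 and 0.00468, below 1 on the log2 scale in size. Within libraries without Y-linked reads, the P18 retina measured 2.23 times the mean of the WT retinas, and within libraries with them, the P18 retina measured 1.87 times the mean of the rd10 P15 retinas. Both ratios were above 1.

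Herpud1 (ENSMUSG00000031770, chr8:94386438-94395377) encodes a protein of the ER membrane that takes part in ER-associated degradation, the export of misfolded proteins to the proteasome. It was measured at 73.8 and 68.9 CPM in WT P15, 52.0 and 55.0 CPM in rd10 P15, 65.3 and 69.6 CPM in rd10 P18, and 76.0 and 80.7 CPM in rd10 P21. Both rd10 P15 libraries were the lowest of the 8 and both rd10 P21 libraries the highest, whereas P18 overlapped WT. Against WT it differed by a log2 fold change of -0.42 ± 0.13 at P15 (edgeR adjusted p = 0.226) and 0.55 ± 0.13 from rd10 P15 to P21 (adjusted p = 0.131, and 0.0163 by DESeq2). At P18 against WT it was -0.08 ± 0.13 (adjusted p = 0.792). Thus Hspa5, with an ERSE, and Herpud1, with an ERSE-II, held different orders of the groups.

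Atf4 (ENSMUSG00000042406, chr15:80255184-80257541) encodes the central transcription factor of the integrated stress response. It measured 270.2 and 245 CPM in WT P15, 227 and 263 CPM in rd10 P15, 347 and 148 CPM in rd10 P18, and 224 and 218.5 CPM in rd10 P21. The 2 retinas at P18 were the highest and the lowest of all 8, with 11626 and 4704 counts, and differed 2.34-fold. In that group 13.4% of genes differed as much between replicates. The log2 fold change at P18 against WT P15 was -0.06 ± 0.34 (edgeR adjusted p = 0.958), and its direction depended on which P18 library was kept. It was 0.43 without rd10 P18 replicate 2 (adjusted p = 0.0425) and -0.80 without rd10 P18 replicate 1 (adjusted p = 0.0213). No direction can be given for Atf4 at P18 from these libraries.

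Atf5 (ENSMUSG00000038539, chr7:44812256-44816658) encodes a related factor whose translation is also raised when eIF2 is phosphorylated. The gene measured 25.9 and 27.1 CPM in WT P15, 23.5 and 24.6 CPM in rd10 P15, 46.6 and 38.1 CPM in rd10 P18, and 30.8 and 35.0 CPM in rd10 P21. The groups did not overlap, with rd10 P15 lowest, then WT P15, rd10 P21 and rd10 P18. Atf5 at P18 differed by a log2 fold change of 0.68 ± 0.17 from WT P15 (edgeR adjusted p = 0.0877) and of 0.81 ± 0.17 from rd10 P15 (adjusted p = 0.0902). DESeq2 gave 0.0173 and 0.00347 for the same differences. Atf5 shares 82 bases of exon (4.11% of its exons) with Nup62 and Il4i1 on the opposite strand, and whether counting used strand is not given in the sources used here.

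Ddit3 (ENSMUSG00000025408, chr10:127290774-127296288) encodes CHOP, the factor downstream of ATF4 that is tied to cell death under prolonged ER stress. It was at 39.9 and 38.0 CPM in WT P15, 32.4 and 34.4 CPM in rd10 P15, 73.0 and 50.6 CPM in rd10 P18, and 38.1 and 36.3 CPM in rd10 P21. Both P18 libraries were above all others, although replicate 1 was 1.44 times replicate 2. For Ddit3 at P18 it was 0.67 ± 0.19 on the log2 scale against WT P15 (edgeR adjusted p = 0.120) and 0.89 ± 0.19 against rd10 P15 (adjusted p = 0.0969). Without rd10 P18 replicate 2, a fit that leaves 1 library in that group, the difference from rd10 P15 was 1.13. With a term for Y-linked reads it was 1.02 with an edgeR adjusted p of 0.0358, so that Ddit3 was called in that fit. More of all genes were called there as well, 275 against 121 in the main fit. From P18 to P21 the log2 fold change was -0.73 ± 0.19 (adjusted p = 0.410). Ddit3 shares 68 bases of exon with Mars on the opposite strand, and a second identifier with the symbol Ddit3 had 1 count in each library and was not used.

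Xbp1 (ENSMUSG00000020484, chr11:5520659-5525893), the substrate of IRE1, measured 41.7 and 42.8 CPM in WT P15, 47.6 and 51.0 CPM in rd10 P15, 58.8 and 73.7 CPM in rd10 P18, and 53.8 and 56.3 CPM in rd10 P21. All 6 rd10 libraries were above both WT libraries. The log2 fold change against WT P15 was 0.22 ± 0.15 at P15, 0.65 ± 0.15 at P18 and 0.38 ± 0.15 at P21, with edgeR adjusted p-values of 0.607, 0.0760 and 0.370. By DESeq2 the adjusted p at P18 was 0.0119. In contrast to Ddit3 and Atf5, the higher P18 value was that of replicate 2.

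**Figure D2:**
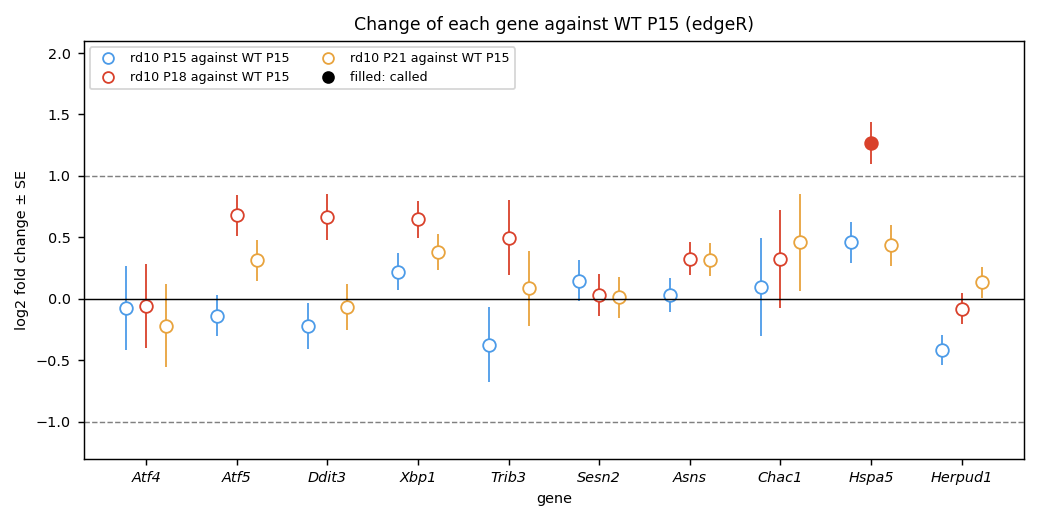
Log2 fold change against WT P15 with its standard error (vertical axis) for each of the 10 genes (horizontal axis) in rd10 P15, P18 and P21; filled points were called and dashed lines mark an absolute value of 1. Hspa5 at P18 (1.26) is the filled point, and the bar of Atf4 (SE 0.34) is wider than those of Atf5, Ddit3 and Xbp1 (0.15 to 0.19).

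Trib3 and Sesn2 encode brakes on growth and stress signals. Trib3 (ENSMUSG00000032715, chr2:152337422-152344032), a pseudokinase induced by ATF4 and CHOP that feeds back on ATF4, measured 5.06 and 5.70 CPM in WT P15, 4.71 and 3.60 CPM in rd10 P15, 6.44 and 8.76 CPM in rd10 P18, and 6.20 and 5.21 CPM in rd10 P21. These levels rest on 102 to 278 counts per library. The P18 values were above all others, with a log2 fold change of 0.50 ± 0.30 against WT P15 (edgeR adjusted p = 0.446) and 0.87 ± 0.31 against rd10 P15 (adjusted p = 0.297). Sesn2 (ENSMUSG00000028893, chr4:132492032-132510501), a leucine-sensing inhibitor of mTORC1, lay between 28.04 and 36.3 CPM in all 8 libraries. Its log2 fold change in the 6 comparisons ranged from -0.14 to 0.15, and its groups overlapped in each of them other than P18 against WT P15, where the difference was 0.03 ± 0.17.

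Asns (ENSMUSG00000029752, chr6:7675169-7693254), which makes asparagine, was measured at 39.2 and 37.7 CPM in WT P15, 40.9 and 37.8 CPM in rd10 P15, 50.7 and 45.8 CPM in rd10 P18, and 48.0 CPM in both rd10 P21 libraries. The 4 libraries of the later ages, all rd10, were above the 4 libraries of P15, which were of both genotypes. The log2 fold change against WT P15 was 0.33 ± 0.14 at P18 (edgeR adjusted p = 0.268) and 0.32 ± 0.14 at P21 (adjusted p = 0.413). Chac1 (ENSMUSG00000027313, chr2:119351229-119354381), an enzyme that degrades glutathione and an ATF4 target, had 73 to 179 counts per library and measured between 2.70 and 5.11 CPM. WT P15, rd10 P15 and rd10 P18 overlapped for Chac1, and the log2 fold change at P18 was 0.32 ± 0.40 (adjusted p = 0.730). Asns, Chac1 and Trib3 each held a CARE in the promoter window, and none of them was called in any comparison.

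Per kilobase, Atf4 was the most abundant of the 10 mRNAs in WT P15 (109 ± 7.69 CPM per kb), before Hspa5 (60.1 ± 7.35), Herpud1 (30.6 ± 1.48) and Ddit3 (22.8 ± 0.774; SD, n = 2 each). Asns, Atf5 and Xbp1 followed between 13.0 and 14.1 CPM per kb on average, of which Atf5 and Xbp1 overlapped between libraries. Trib3 (2.53 ± 0.211) and Chac1 (2.09 ± 0.625) were the least abundant and overlapped as well. In rd10 P18, Hspa5 stood first at 144 ± 14.4 CPM per kb and Atf4 next at 105 ± 59.6 CPM per kb, and both genes overlapped between libraries.

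At P15, where both genotypes were measured at the same age, none of the 10 genes was called in rd10 against WT by edgeR or by DESeq2. Of all genes, edgeR called 47 (0.23%) and DESeq2 called 430. Unadjusted p was under 0.05 for 2 of the 10, Hspa5 (higher) and Herpud1 (lower), against 12.3% of all genes. The log2 fold changes ranged from -0.42 to 0.46, with a median of -0.02, and 5 of the 10 were above 0, as for 48.8% of all genes. A change of 2-fold or more was not seen in any of the 10 at that age.

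In rd10 P21 against WT P15, edgeR called 79 of all genes (0.386%) and DESeq2 called 570. Neither tool called any of the 10 genes. Unadjusted p was under 0.05 for 3 of them, Hspa5, Xbp1 and Asns, all higher, against 11.8% of all genes. Their log2 fold changes had a median of 0.22 and a highest value of 0.46, that of Chac1, whose SE was 0.40. The comparisons of rd10 P15, P18 and P21 with WT P15 share the WT libraries, so they are not independent of each other.

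Between rd10 ages, none of the 10 genes was called by either tool. Of all genes, DESeq2 called 594 from P15 to P18, 532 from P15 to P21 and 116 from P18 to P21. The numbers called by edgeR were 121, 82 and 4, and the shares of all genes called given below are those of edgeR. From P15 to P18, when 0.591% of all genes were called, the unadjusted p was under 0.05 for 6 of the 10 (Atf5, Ddit3, Xbp1, Trib3, Hspa5 and Herpud1, all higher), against 12.9% of all genes, and DESeq2 gave an adjusted p under 0.05 for 3 (Atf5, Hspa5 and Ddit3), against 3.94%. Their median log2 fold change was 0.38, beside 0.01 over all genes. From P15 to P21 (0.401% of all genes called) the unadjusted p was under 0.05 for Atf5 and Herpud1, both higher, against 12.8% of all genes, and the DESeq2 adjusted p for Herpud1, against 3.86%. From P18 to P21 (0.0196% of all genes called) it was under 0.05 for Hspa5 and Ddit3, both lower, against 10.8% of all genes, and the DESeq2 adjusted p for Hspa5, against 0.836%.

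The other genes of the pathway were taken from 7 lists with 87 genes, of which 86 were tested. In rd10 P18 against WT P15, 4 of the 86 were called, all higher, against 1.48% of all genes (1.15% higher): Sdf2l1, Manf, Atf3 and Cebpb. None was called in rd10 P15 or P21 against WT P15. From rd10 P15 to P18, Sdf2l1 and Atf3 were called, both higher, against 0.591% of all genes, and none was called in the other comparisons between rd10 ages. The genes that passed belong to 2 lists, ER chaperones and folding enzymes on the one side, and partner factors and other stress-induced genes on the other.

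Among 16 ER chaperones and folding enzymes, 2 rose at P18 against WT P15 and none fell, where 1.15% of all genes were called higher. Their median log2 fold change was 0.36, beside 0.01 over all genes, and 14 of 16 were above 0, against 51.0% of all genes. Sdf2l1, a partner of ER co-chaperones, measured 6.06 and 6.05 CPM in WT P15, 5.66 and 5.22 CPM in rd10 P15, 23.8 and 19.8 CPM in rd10 P18, and 9.82 and 9.65 CPM in rd10 P21. Both P18 libraries were above all others and both P21 libraries were next. Its log2 fold change was 1.85 ± 0.22 against WT P15 (edgeR adjusted p = 0.0103) and 2.00 ± 0.22 against rd10 P15 (adjusted p = 0.0113).

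Manf, a protein that is secreted under ER stress and binds BiP, measured 48.2 and 38.8 CPM in WT P15, 53.5 and 60.6 CPM in rd10 P15, 98.1 and 80.9 CPM in rd10 P18, and 50.6 and 45.0 CPM in rd10 P21. At P18 against WT P15 its log2 fold change was 1.04 ± 0.17 (edgeR adjusted p = 0.0291), just past the threshold, and with a term for Y-linked reads it was 0.92 (adjusted p = 0.0572). Without rd10 P15 replicate 1 or replicate 2 the adjusted p of Manf was 0.0564 and 0.0581, and without rd10 P18 replicate 1 its log2 fold change was 0.89. Calr, the chaperone calreticulin, had an adjusted p of 0.0481 with a log2 fold change of 0.63 and was not called. Pdia3 (0.74, adjusted p = 0.0942) and Pdia6 (0.68, adjusted p = 0.0765), which form disulfide bonds, did not pass. The lowest of the list was Ero1a, an oxidase of the same pathway, at -0.14 ± 0.14 (adjusted p = 0.637). At P21 against WT P15 the median of the list was -0.01, and from P18 to P21 it was -0.42, with 15 of 16 genes below 0 and none called.

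**Figure D3:**
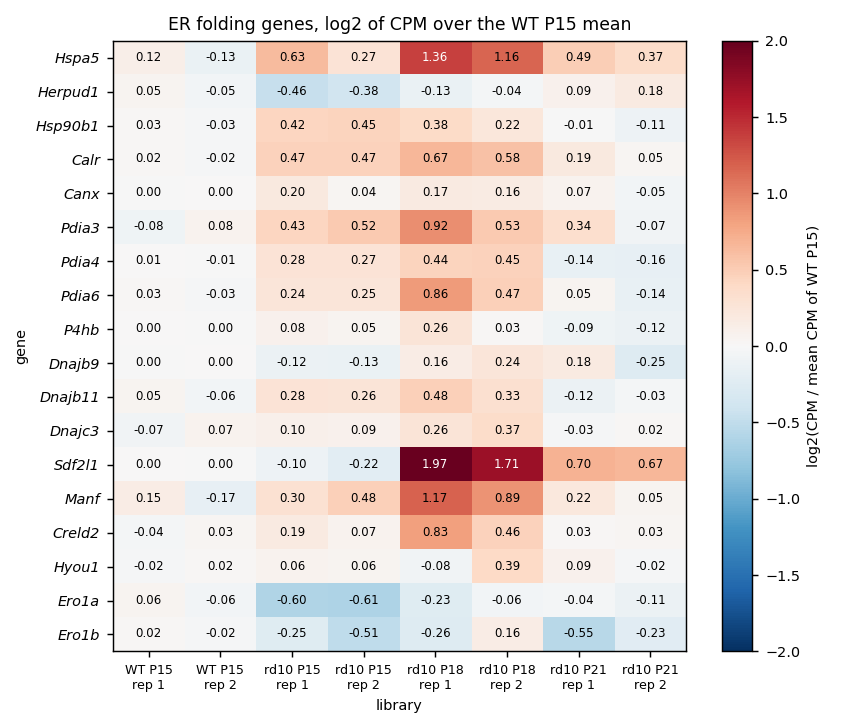
Log2 of CPM over the WT P15 mean in each of the 8 libraries (columns) for Hspa5, Herpud1 and the 16 ER chaperones and folding enzymes (one gene a line); red is above and blue below the WT P15 mean. All genes other than Herpud1, Hyou1, Ero1a and Ero1b are above the WT P15 mean in both P18 libraries. The called genes Hspa5, Manf and Sdf2l1 are the furthest above it, and Sdf2l1 is the darkest.

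An ERSE lay in the promoter window of 8 of 15 folding genes that had a window (Hspa5 and Calr, Canx, Creld2, Dnajc3, Ero1b, Hsp90b1 and Pdia6), against 0.137% of all 27025 genes. At P18 against WT P15 the median log2 fold change was 0.47 in these 8 and 0.40 in the 7 without the pattern, and 1 gene was called in each group (Hspa5 with it, Sdf2l1 without it). The ranges, -0.04 to 1.26 and -0.14 to 1.85, overlapped. Dnajb11, one of the 7 without ERSE, held an ERSE-II in its window.

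The partner factors and other stress-induced genes had 11 of 12 members tested, and 2 rose at P18 against WT P15, where 1.15% of all genes were called higher. Fgf21 had no count in any library. Atf3, an early-response factor induced by ATF4 and by many other stresses, measured 3.55 and 4.69 CPM in WT P15, 2.13 and 3.35 CPM in rd10 P15, 20.9 and 20.2 CPM in rd10 P18, and 8.14 and 5.24 CPM in rd10 P21. The P18 libraries were far above all others, and both P21 libraries lay above the P15 libraries of either genotype. The log2 fold change was 2.31 ± 0.34 against WT P15 (edgeR adjusted p = 0.0222) and 2.90 ± 0.35 against rd10 P15 (adjusted p = 0.0167). CARE lay in the promoter window of 5 of the 12 genes of this list (Atf3, Fgf21, Jdp2, Nupr1 and Vldlr), against 4.51% of all genes, and not in those of Cebpb and Sdf2l1. The match of Atf3, the called gene with the pattern, lies within an intron of a longer transcript.
Atf3, CARE, chr1:191183425-191183454, minus strand, intron: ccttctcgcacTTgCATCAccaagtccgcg

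Cebpb, a C/EBP factor that pairs with ATF4 and CHOP and is also used widely in inflammation, had 41 and 29 counts in WT P15, 56 and 51 counts in rd10 P15, 375 and 276 counts in rd10 P18, and 228 and 86 counts in rd10 P21. Its log2 fold change at P18 against WT P15 was 3.02 ± 0.47 (edgeR adjusted p = 0.0285), and against rd10 P15 it was 2.47 ± 0.46 (adjusted p = 0.0639). Vldlr, a lipoprotein receptor, was the lowest of this list, at -0.68 ± 0.18 (adjusted p = 0.101). The median of the list was 0.23. With WT P15 replicate 1 left out, the adjusted p was 0.106 for Sdf2l1, 0.127 for Manf, 0.169 for Atf3 and 0.131 for Cebpb, and without WT P15 replicate 2 it was 0.0644, 0.150, 0.0810 and 0.131. The 4 calls were thus not kept with 1 WT library, as for Hspa5, and fewer of all genes were called in those fits as well. From rd10 P15 to P18, the adjusted p without rd10 P15 replicate 1 was 0.101 for Sdf2l1 and 0.112 for Atf3, and without rd10 P15 replicate 2 it was 0.112 and 0.0690.

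No gene was called in the remaining lists in any of the 6 comparisons. Of the 17 stress sensors and genes of eIF2 control, the median log2 fold change at P18 against WT P15 was 0.13. The highest was Eif2ak2, which encodes the RNA-activated eIF2 kinase PKR, an interferon-induced gene, at 2.23 ± 0.79 (edgeR adjusted p = 0.231), with 148 and 247 counts in WT P15, 203 and 174 counts in rd10 P15, 1249 and 826 counts in rd10 P18, and 2183 and 294 counts in rd10 P21. The 2 retinas at P21 were far apart. The lowest was Ern1, which encodes IRE1, at -0.57 ± 0.24 (adjusted p = 0.268). Eif2ak3, which encodes PERK, was at 0.17 ± 0.18 (adjusted p = 0.680), and Atf6 at -0.47 ± 0.19 (adjusted p = 0.264).

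The 12 genes of ER-associated degradation had a median of 0.04 at P18 against WT P15, from Edem3 at -0.54 (edgeR adjusted p = 0.405) to Edem1 at 1.16 (adjusted p = 0.395), both of which act on misfolded glycoproteins. Edem1 measured 6.89 and 25.8 CPM in the P18 libraries and overlapped WT. The 13 targets of ATF4 in amino acid transport and folate metabolism had a median of 0.22, with 11 of 13 above 0. They ranged from Slc7a3, a transporter of cationic amino acids, at -0.43 (adjusted p = 0.605) to Mthfd2, a mitochondrial folate enzyme, at 0.54 (adjusted p = 0.362). At P21 against WT P15 the median of these 13 was 0.36, with 12 above 0, against 50.1% of all genes, and none was called.

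The 12 tRNA synthetases, which charge tRNAs and are common ATF4 targets, had a median of 0.07, from Wars at -0.51 (edgeR adjusted p = 0.416) to Tars at 0.31 (adjusted p = 0.406). The 5 cell death genes downstream of CHOP had a median of 1.00 at P18 against WT P15, the highest of the 7 lists. None was called, and 5 of 5 were above 0, against 51.0% of all genes. At P15 against WT P15 their median was already 0.45, with 4 of 5 above 0, against 48.8% of all genes. From rd10 P15 to P18 the median was 0.21, with 3 of 5 above 0. At P18 against WT P15, Bcl2l11, which encodes BIM, was at 0.27 ± 0.73 (edgeR adjusted p = 0.899). It had only 109 counts in WT P15 replicate 2 against 563 in replicate 1. Casp12, an ER-associated caspase, had 14 and 8 counts in WT P15, no count in either rd10 P15 library, 109 and 27 counts in rd10 P18, and 87 and 10 counts in rd10 P21 (adjusted p = 0.342 at P18 against WT P15). Bbc3, which encodes PUMA, was at 1.00 ± 0.28 (adjusted p = 0.125).

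**Figure D4:**
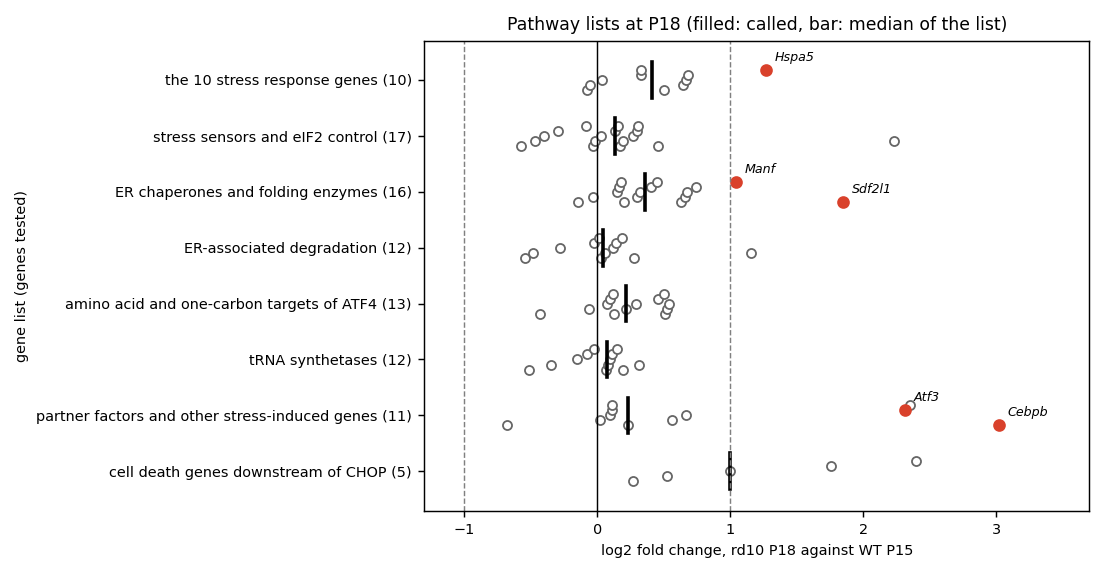
Log2 fold change in rd10 P18 against WT P15 (horizontal axis) of the 10 genes and of each tested gene of the 7 pathway lists (vertical axis, number tested in parentheses); filled red points were called, thick bars are list medians and dashed lines mark -1 and 1. The called genes are Hspa5, Sdf2l1, Manf, Atf3 and Cebpb, and the medians of degradation (0.04) and tRNA synthetases (0.07) lie near 0.

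Markers of several cell types moved with the same groups, and in bulk retina fewer cells of a type and less RNA per cell cannot be told apart. The summed CPM of 6 markers of reactive Muller glia was 180 to 208 in WT P15, 157 in both rd10 P15 libraries, 1240 to 1277 in rd10 P18 and 576 to 776 in rd10 P21, and 4 of 6 were called higher at P18 against WT P15. Its order of the groups, with P18 highest and P21 next, was that of Sdf2l1 and Atf3. Gfap measured 27.3 and 43.0 CPM in WT P15 and 363 and 399 CPM in rd10 P18. The sum of 8 markers of microglia and macrophages was 69.4 to 77.2 CPM in WT P15, 94.4 to 96.9 CPM in rd10 P15, 224 to 225 CPM in rd10 P18 and 175 to 326 CPM in rd10 P21, with 2 of 8 called higher at P18, and C1qa measured 5.17 and 5.83 CPM in WT P15 and 33.7 and 25.8 CPM at P18. The sum of 7 rod markers (Pde6b, Gnat1, Cnga1, Sag, Nrl, Nr2e3 and Gngt1) was 19474 to 21162 CPM in WT P15, 15378 to 15965 CPM in rd10 P15, 12648 to 13654 CPM in rd10 P18 and 9084 to 10961 CPM in rd10 P21, with 1 of 7 called lower at P18 and 1 of 7 at P21 against WT P15. The part of these shifts in the change of Hspa5, Sdf2l1, Manf, Atf3 and Cebpb was not tested.

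Other marker lists also differed between libraries, and whether cell content or expression changed was not tested. The 6 markers of retinal pigment epithelium summed to 38.1 and 148 CPM in WT P15, 200 to 235 CPM in rd10 P15, 19.8 to 31.5 CPM in rd10 P18 and 24.8 to 32.9 CPM in rd10 P21, so they were lower in both later groups than in any library of P15. Rpe65 was at 3.47 and 15.5 CPM in WT P15 and at 1.61 and 0.693 CPM in rd10 P18. The 6 lens markers summed to at most 5.61 CPM, and Cryaa and Crygs were at or near 0. The 6 cone markers summed to 1067 and 1406 CPM in WT P15, 613 and 709 CPM in rd10 P15, 857 and 869 CPM in rd10 P18, and 1096 and 1202 CPM in rd10 P21, and Arr3, a cone arrestin, was called lower than WT at P15 and P18. The summed CPM of 6 genes of Muller glia in general was lowest in rd10 P18 (3443 and 3607 CPM). It was 3710 to 4548 CPM in the P15 libraries and 4993 to 5228 CPM in rd10 P21, an order opposite at P18 to that of the reactive sum. Glul alone measured 1814 and 1847 CPM in rd10 P18 and 2164 to 2736 CPM in the P15 libraries. The 6 genes as a list were not lower, with a median log2 fold change at P18 of 0.05 against WT P15 and 0.04 against rd10 P15. The 5 genes of red blood cells summed to 177 to 188 CPM in WT P15, 67.1 to 84.6 CPM in rd10 P15, 56.8 to 160 CPM in rd10 P18 and 125 to 133 CPM in rd10 P21. The summed CPM of 6 endothelial markers was highest in rd10 P21, at 484 to 571 CPM, and lay between 307 and 429 CPM elsewhere. The sum did not follow most of these genes. Their median log2 fold change against WT P15 was 1.37 in rd10 P15 and 0.79 in rd10 P21. Both defining markers were highest in rd10 P15. Cdh5 measured 15.5 and 17.6 CPM there and 10.4 and 9.54 CPM in rd10 P21. Pecam1 measured 17.7 and 18.5 CPM there and 15.1 and 11.6 CPM in rd10 P21. Sums ranged over all libraries from 1273 to 1930 CPM for 6 bipolar genes and from 1058 to 1189 CPM for 6 amacrine and ganglion cell genes. Glul, a defining marker of Muller glia, was abundant in all 8 libraries.

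Within libraries without Y-linked reads, the P18 retina measured 3.27 times the WT P15 mean for Sdf2l1, 1.86 times for Manf, 4.89 times for Atf3 and 7.09 times for Cebpb. Within libraries with Y-linked reads, the P18 retina measured 4.37, 1.72, 7.61 and 6.25 times the rd10 P15 mean for these genes. For the 10 genes the same ratios were 1.44 and 1.94 for Atf5, 1.30 and 2.19 for Ddit3, 1.74 and 1.19 for Xbp1, 1.63 and 1.55 for Trib3, 1.19 and 1.29 for Asns, and 1.41 and 1.03 for Chac1, besides those of Hspa5. Atf4 gave 0.576 and 1.42, Herpud1 0.975 and 1.22, and Sesn2 1.03 and 0.916, which lie on opposite sides of 1. These ratios compare 1 retina with 2 and carry no test.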

How the data were processed

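Whole-retina poly(A) libraries were sequenced on an Illumina NovaSeq instrument. The authors deposited raw counts of reads per gene, not normalized, for 57010 mouse Ensembl identifiers in 8 libraries. HISAT2 is named in the submitters' processing notes. Its version, the annotation, the build and the tool used for counting were not given in the sources used here. All 8 columns were used. Symbols, exon lengths and overlaps came from GENCODE M21 (GRCm38), which holds 52081 of the identifiers, and promoter windows from RefSeq (GRCm38.p6).

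From these counts, differential expression was tested with edgeR 4.0.16 (R 4.3.3, limma 3.58.1): filterByExpr (minimum count 10, minimum total 15), TMM factors of 0.937 to 1.06, and a robust quasi-likelihood fit of the 4 groups over all 8 libraries with 4 residual degrees of freedom. Adjustment was by Benjamini and Hochberg over 20457 genes. DESeq2 1.42.0 was the other tool. The fit was also run on simulated counts, with planted changes larger than any of the 10 genes showed and the same spread in every group. That run therefore does not show how well changes of the size seen here are called. The labels call the 2 libraries of a group biological replicates without naming the animals, so p-values measure the spread between these retinas. An exact permutation test of 2 libraries against 2 cannot give a p below 0.333, so none is given.

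The members and gene lists were chosen with earlier results of these data known. The text names all 10 members and, per list, each gene called and the genes with the highest and lowest log2 fold change in rd10 P18 against WT P15. Calr, Pdia3, Pdia6, Eif2ak3, Atf6 and Bbc3 were named after their values were seen. The first 2 genes of a marker list were its defining markers, and 1 gene of the rod list is not reported here. Alternatives were DESeq2, scaling by RLE or by library size alone, no filter on low counts, a fit of the 4 libraries compared, a replicate block, a term for Y-linked reads, calls by adjusted p alone and each library left out in turn. Python 3.11.15 with matplotlib 3.10.9 drew the figures.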

Additional observations from a re-analysis of the deposited data

How the results depend on the processing

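Groups of 2 libraries and a threshold of 2-fold limit what could be called, and Trib3 and Chac1 rest on the lowest counts of the 10 genes. The number of the 10 genes called in rd10 P18 against WT P15 was 0 instead of 1 when the 4 libraries compared were fitted alone, and ranged from 0 (without WT P15 replicate 1 or replicate 2) to 1 with each library left out in turn. In rd10 P18 against rd10 P15 it was 1 instead of 0 with a term for Y-linked reads. Ddit3 also passed without rd10 P18 replicate 2, at a log2 fold change of 1.13, and none passed with any other library left out. That fit leaves 1 library in the group whose replicates lay furthest apart, and many more of all genes passed in it. In the other 4 comparisons the number of the 10 genes called was 0 under every alternative. The number called over all genes moved in the same direction. In rd10 P18 against WT P15 it was 143 with the 4 libraries fitted alone, against 303 in the main fit. In rd10 P18 against rd10 P15 it was 275 with the term for Y-linked reads, against 121 in the main fit. A fit with a library left out holds 1 library in a group. The replicate numbers do not pair the retinas (correlation of replicate deviations -0.02 to 0.06). With replicate number as a block the number called at P18 against WT P15 was 1, that is, Hspa5, and Atf4 turned to -0.054 from rd10 P15 to P18. The following log2 fold changes changed sign, none of them called in the comparison concerned. Scaling by library size only, which moved the median of all genes against WT P15 to 0.13 (P18) and 0.11 (P21), gave 0.082 for Atf4 and 0.042 for Herpud1 at P18, and 0.046 for Ddit3 at P21, all against WT P15, and 0.042 for Hspa5 from rd10 P15 to P21. The term for Y-linked reads gave -0.042 for Asns at P15 against WT P15, and 0.20 for Atf4 and 0.055 for Hspa5 from rd10 P15 to P21. With each library left out, the log2 fold change at P15 against WT P15 ranged from -0.18 to 0.033 for Atf4, from -0.035 to 0.31 for Sesn2, from -0.024 to 0.086 for Asns and from -0.33 to 0.44 for Chac1. At P18 it ranged from -0.80 to 0.43 for Atf4, and at P21 from -0.047 to 0.21 for Trib3 and from -0.054 to 0.079 for Sesn2. From rd10 P15 to P18 the range was -0.72 to 0.50 for Atf4, -0.28 to 0.074 for Sesn2 and -0.11 to 0.66 for Chac1, and from rd10 P15 to P21 it was -0.30 to 0.052 for Sesn2 and -0.19 to 0.17 for Hspa5. From P18 to P21 it was -0.65 to 0.58 for Atf4, -0.092 to 0.046 for Sesn2, -0.079 to 0.066 for Asns and -0.035 to 0.32 for Chac1. Manf at P18 against WT P15 was not called in 5 of the 8 fits with a library left out nor with the 4 libraries fitted alone (adjusted p = 0.102), Sdf2l1 from rd10 P15 to P18 was at an adjusted p of 0.0534 with the 4 libraries fitted alone, and the cause of these shifts was not tested. The RLE, unfiltered and DESeq2 fits kept the direction and the call of every value compared.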
